A study of Mus musculus with 2 samples.

Results

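Of the 779 TCF7 peaks in the deposited list, 229 (29.4%) covered the start of the gene they were assigned to, and these 229 regions are described here. They were taken by the position class in the authors' nearest-gene table, not by fold enrichment or fragments. That class rests on the called borders of each peak, and so on its width. Of the rest, 293 peaks were classed as upstream of their nearest gene, 175 as inside it, 81 as downstream and 1 as overlapping its end. All 229 gene starts of the authors' table lay inside their peak, each peak had its own gene, and 227 of the 229 gene identifiers matched the GENCODE vM21 annotation of the same genome build (mm10, GRCm38). For 15 of these 227, among them Srpk2, Ube2a, Pmvk and Rpl13a, the annotated start of the gene lay outside the peak. The data came from 1 TCF7 ChIP library, made with a rabbit monoclonal antibody to TCF1/TCF7 (C63D9), and 1 library of sonicated input DNA without immunoprecipitation. Both were made from formaldehyde-fixed double positive T-ALL cells of the genotype Lck-Akt2;Dlx5 transgenic. These are the cells of the line DP352, named with the deposited tables, which came from a lymphoma of an Lck-Dlx5;Lck-MyrAkt2 mouse. Both transgenes are driven by the Lck promoter in T cells, and a single line stands for the genotype. Neither library had a replicate, so no difference below was tested, and intervals cover counting error only. The labelled cell type was not checked against markers, since the tables used here hold peaks and not expression.

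Tcf7, also called Tcf1, is an HMG-box transcription factor of developing T cells. Together with β-catenin it mediates the transcriptional output of Wnt signaling, and its family binds a short AT-rich word that is usually written with CTTTG at its core. A gene start, or transcription start site (TSS), is where RNA polymerase II begins to copy a gene. In mammals, the starts of widely expressed genes mostly lie in stretches rich in CpG dinucleotides, which often hold binding sites for ETS factors, NRF1, NFY, YY1 and the SP1/KLF family.

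The sequences under 6 strong intergenic summits, chosen after their values were seen, are shown first, because they give the range of what was found at such summits, from none of the words searched to a TCF/LEF word. The summit is the base with the highest ChIP coverage in a peak. Each window holds 100 bp on each side of the summit, contains no annotated exon and is written 5′ to 3′ on the strand of the gene. Capitals mark every match to 1 of the 12 motifs searched and to the word GTACCA, on either strand. Positions are those of mm10, and the bases are those of the GRCm38 reference.
Ptov1, chr7:44869853-44870053, minus strand: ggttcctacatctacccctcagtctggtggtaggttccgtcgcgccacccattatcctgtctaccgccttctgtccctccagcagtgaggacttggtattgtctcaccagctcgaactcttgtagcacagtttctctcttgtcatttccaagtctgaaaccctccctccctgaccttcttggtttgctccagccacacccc
Phrf1, chr7:141228505-141228705, plus strand: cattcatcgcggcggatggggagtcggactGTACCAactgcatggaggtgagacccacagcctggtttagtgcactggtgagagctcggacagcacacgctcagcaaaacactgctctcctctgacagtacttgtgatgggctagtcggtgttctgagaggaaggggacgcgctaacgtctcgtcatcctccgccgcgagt
Cmc2, chr8:116921514-116921714, minus strand: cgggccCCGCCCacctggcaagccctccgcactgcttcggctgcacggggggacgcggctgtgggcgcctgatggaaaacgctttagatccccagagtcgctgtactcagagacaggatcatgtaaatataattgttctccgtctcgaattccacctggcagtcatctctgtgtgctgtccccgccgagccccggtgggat
Hdac2, chr10:36974299-36974499, plus strand: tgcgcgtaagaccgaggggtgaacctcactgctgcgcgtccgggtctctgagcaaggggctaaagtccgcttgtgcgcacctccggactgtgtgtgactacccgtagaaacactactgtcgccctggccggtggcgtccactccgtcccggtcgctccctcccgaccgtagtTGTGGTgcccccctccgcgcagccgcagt
Rpl22, chr4:152325534-152325734, plus strand: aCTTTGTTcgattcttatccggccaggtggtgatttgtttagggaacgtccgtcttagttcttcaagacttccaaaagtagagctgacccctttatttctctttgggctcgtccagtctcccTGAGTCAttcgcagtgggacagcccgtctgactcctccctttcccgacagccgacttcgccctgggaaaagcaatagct
Frat2, chr19:41848153-41848353, minus strand: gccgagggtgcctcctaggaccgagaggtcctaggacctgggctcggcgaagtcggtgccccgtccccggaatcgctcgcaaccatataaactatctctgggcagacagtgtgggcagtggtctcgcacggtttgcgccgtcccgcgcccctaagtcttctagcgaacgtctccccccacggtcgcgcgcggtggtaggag
The windows of Ptov1 and Frat2 held none of these words, that of Cmc2 held an SP1/KLF box and that of Hdac2 a RUNX word. Rpl22 was the only 1 of the 6 with a TCF/LEF word, at the far edge of a window that also held an AP1 word, and Phrf1 the only 1 with GTACCA.

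The peaks that covered a gene start were the strong end of the TCF7 peak list. Their fold enrichment, the authors' MACS2 ratio of ChIP coverage to the local input background, had a median of 20.8, with quartiles of 10.5 and 29.5 and a range of 3.997 to 61.8. The other 550 peaks had a median of 7.45, with quartiles of 5.43 and 11.6 and a highest value of 37.0. A fold enrichment of at least 20 was reached by 121 of the 229 peaks (52.8%, 95% Wilson interval 46.4 to 59.2), where the share over all 779 peaks was 22.1%. At a threshold of 10-fold the count was 175 (76.4%, 70.5 to 81.5), beside 45.1% over all peaks. They made up the 10 highest peaks of the whole list, 42 of the highest 50 and 74 of the highest 100, and only 6 of the lowest 100.

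The count of immunoprecipitated DNA fragments over the summit gave the same order. The 229 peaks had a median of 338 ChIP fragments (range 40 to 631), and the other peaks had a median of 84 (28 to 582). The 3 other large classes had close medians of 91 (upstream), 78 (inside) and 79 (downstream). Their fold enrichments were also close, at 7.77, 7.09 and 6.76. The 183 other peaks with a summit within 1000 bp of their gene start had a median fold enrichment of 8.19 and 110 fragments, and they were narrower (median 252 bp).

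**Figure D1:**
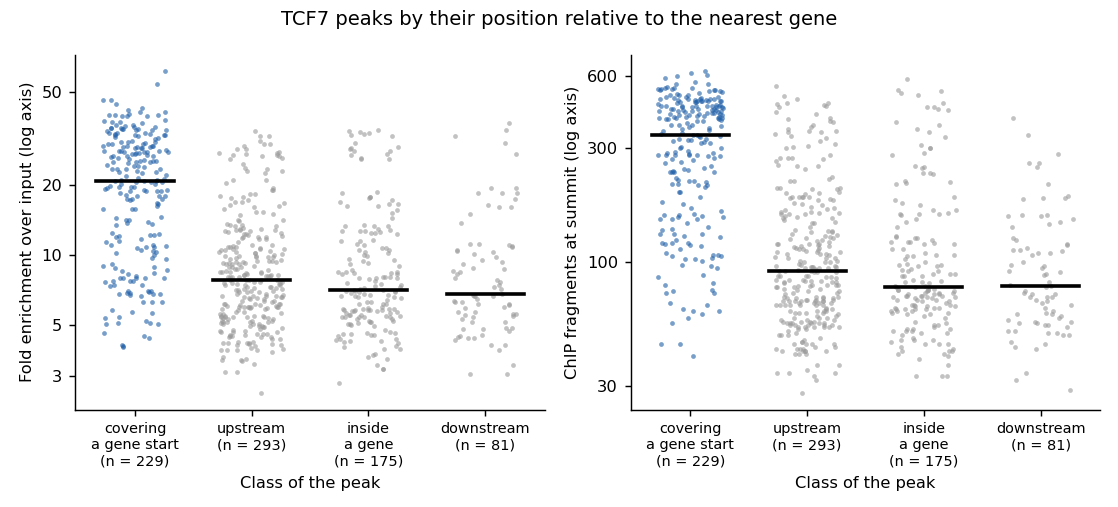
Each point is 1 TCF7 peak, by its position class, and black bars are medians. The left axis is the fold enrichment over input and the right axis the number of ChIP fragments at the summit, both logarithmic. The 229 peaks covering a gene start have medians of 20.8-fold and 338 fragments, above those of the 3 other classes (6.76- to 7.77-fold and 78 to 91 fragments), and all classes overlap.

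Width enters this contrast through the way the peaks were chosen, since a wide peak covers a nearby start more easily. The 229 peaks had a median width of 439 bp, and the other 550 peaks 242 bp. Across the 229 peaks, wider ones had higher fold enrichments (Spearman's rho 0.65 over 229 peaks of 1 library pair, a description without a test). Over all peaks of the list, those covering a start and the others together, Spearman's rho was higher, at 0.80, also without a test. When all peaks were divided into 3 classes by width, the widest, 378 to 1701 bp, held 164 peaks that covered a start, with a median of 26.6-fold, beside 18.4-fold for the 96 others and 21.7-fold for those 46 of the others that had a summit within 1000 bp of a start. In the middle class, 228 to 377 bp, the order turned, with 8.14-fold for 54 peaks covering a start and 9.40-fold for 205 others. In the narrowest class, 159 to 227 bp, 11 peaks covered a start and the medians were 5.66 and 5.60. The higher enrichment was therefore seen among wide peaks and not among narrow ones. Just inside the rule, the 130 peaks whose nearer edge was within 100 bp of the start had a median of 18.8-fold, and just outside it, the 71 other peaks with an edge within 100 bp of the start had 8.89-fold. Width was not held equal between these sets, and its part in this contrast was not tested.

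**Figure D2:**
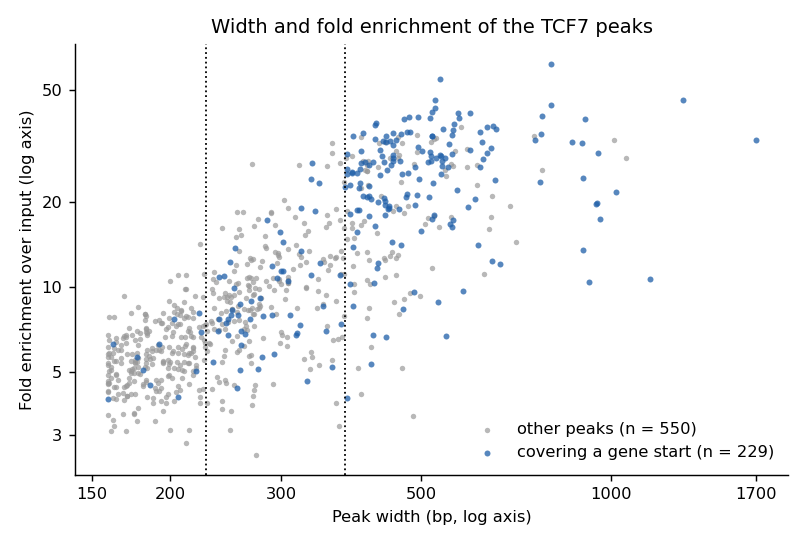
Each point is 1 peak, with its width in bp and its fold enrichment over input, both on logarithmic axes. Blue points cover a gene start, grey points do not, and dotted lines divide all 779 peaks into the 3 width classes. Right of the second line (378 bp and wider) the blue points have a median of 26.6-fold and the grey points 18.4-fold, while in the middle class the medians are 8.14 and 9.40.

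The highest peaks covered the starts of genes with unlike functions. The first was at Timm17b on chromosome X (chrX:7898645-7899449), a gene for a subunit of the translocase of the mitochondrial inner membrane, with 369 fragments (95% Poisson interval 332 to 409) and 61.8-fold enrichment. It also covered the start of Pqbp1, a gene for a nuclear protein that acts in splicing. The second, at Sept11, a septin gene, had 467 fragments (426 to 511) and 54.4-fold enrichment. Ptov1 and Phrf1, a PHD and RING finger gene, had 606 and 528 fragments and 46.1-fold each. Ptov1 also had the highest −log10 of the q-value of the list, 408. The highest number of fragments, 631 (583 to 682), was at the ubiquitin ligase gene Rnf44, in the widest peak of the list (1701 bp), with a lower fold enrichment of 33.0. The orders by fragments and by fold enrichment thus differed, since the local input enters only the second.

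At the low end, Sh3bp4, Pygo2, Rpl13a, Hcfc1 and Pqlc3 had fold enrichments of 3.997, 4.06, 4.08, 4.38 and 4.49. Their fragments numbered 67, 107, 45, 40 and 45, well under the median of 338. The 3 narrowest peaks, at Sh3bp4 (159 bp), Supt4a (162 bp) and Rasgrp1 (177 bp), were also weak, with 67, 81 and 74 fragments. A wide peak was not always strong: that of Axin2 spanned 1154 bp with 123 fragments (102 to 147).

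Summits stood on both sides of the start, with a dip in their number just upstream of it. The median position was 61 bp upstream (written −61), and 128 summits (55.9%, 49.4 to 62.2) were upstream. Since the peak had to cover the start, a summit close to it is partly fixed by the choice, and 204 summits were within 200 bp. In bins of 50 bp, the counts were highest from 150 to 101 bp upstream (42 summits) and lower within 50 bp upstream of the start (12). They were higher again from 0 to 49 bp (22) and from 50 to 99 bp downstream (30). Peaks with a summit over 100 bp upstream had the highest medians of fold enrichment. The 77 peaks with a summit 101 to 200 bp upstream had 28.6-fold and the 13 farther upstream 27.0-fold, whereas the 38 peaks with a summit 1 to 100 bp upstream had 17.0-fold and the 53 with a summit 0 to 100 bp downstream had 11.4-fold. From 101 to 200 bp downstream, 36 peaks had a median of 18.5-fold, and the 12 peaks farther downstream had 20.6-fold. Width moved with position, with medians of 574, 457, 389, 336, 437 and 636.5 bp in these 6 groups from upstream to downstream, and its part in the pattern was not tested.

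**Figure D3:**
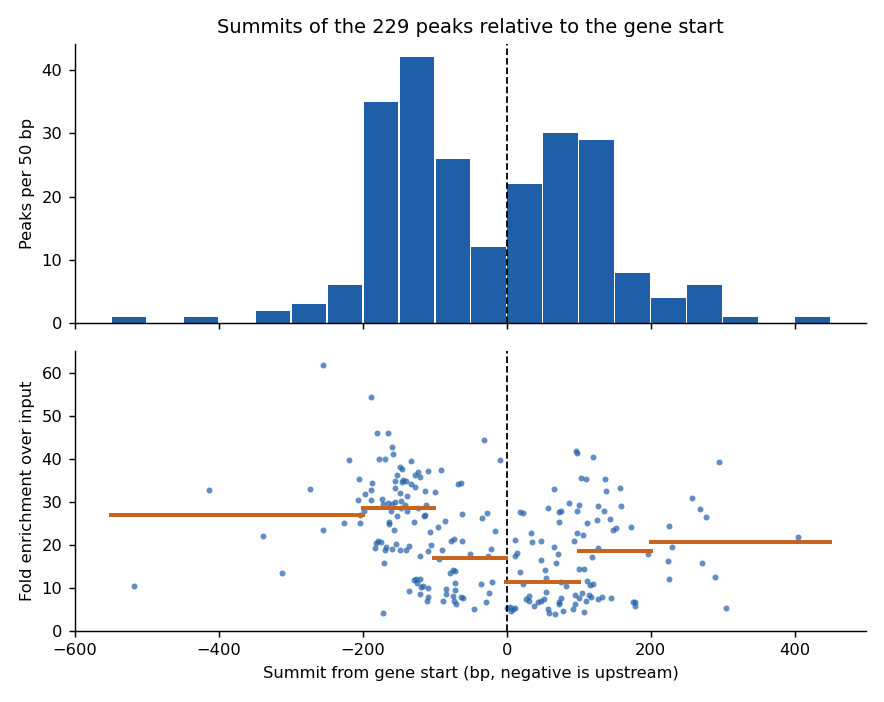
The upper panel counts the summits of the 229 peaks in bins of 50 bp by their distance from the gene start, with upstream negative. The lower panel shows the fold enrichment of each peak, with orange lines at the medians of 6 distance groups, which are highest 101 to 200 bp upstream (28.6-fold) and lowest 0 to 100 bp downstream (11.4-fold).

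Fos, Smc3, Hdac2, Atg101 and Mlst8 were examples of the upstream group. Fos, the AP1 subunit gene, had its summit at −159 with 396 fragments (358 to 437) and 29.5-fold enrichment. Smc3, a cohesin subunit gene, had its summit at −148 with 490 fragments and 32.1-fold. On the downstream side, Lrpprc, a gene for a protein that binds mitochondrial mRNA, had its summit at 96 bp with 478 fragments (436 to 523) and 41.8-fold. Slc35e2, a gene of the nucleotide sugar transporter family, had its summit at 120 bp with 567 fragments and 40.4-fold. By the annotation, 90 of the 229 summits lay in a UTR, 81 in intergenic sequence, 39 in an intron, 15 in an exon of a non-coding transcript and 4 in a coding exon.

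A start on each strand was present in 39 of the 229 peaks (17.0%, 12.7 to 22.4), and in 30 of these the genes pointed away from each other. In 26 peaks (11.4%) the starts on both strands belonged to protein-coding genes. A window of the median width, 439 bp, around each of the 21938 protein-coding starts of the annotation held starts on both strands in 9.50% of cases, or 6.14% with protein-coding genes only. Peaks wider than the median hold more starts, so these shares are set side by side only as a guide. The nearest starts on opposite strands were 39 to 454 bp apart, with a median of 154 bp.

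The strongest of these peaks held the starts of unrelated genes. Timm17b and Pqbp1 started 88 bp apart under the 61.8-fold peak. Cmc2, needed to assemble cytochrome c oxidase, and Cenpn, a centromere protein gene, started 275 bp apart under a peak of 498 fragments (455 to 544) and 42.9-fold. Ssrp1, a histone chaperone gene of the FACT complex, shared its 35.2-fold peak with P2rx3, an ATP-gated channel gene, and Ppp1r13l shared its 35.0-fold peak with Cd3eap. The partners of Sept11 and Zfp27 in their peaks were the RNA genes Gm43173 and Mir7668. Peaks with starts on both strands had a median of 21.4-fold, close to the 20.6-fold of the other 190 peaks. The gene named for such a peak in the nearest-gene table is therefore 1 of at least 2 whose start it covered.

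Protein-coding genes accounted for 215 of the 229 assigned genes (93.9%, 90.0 to 96.3), beside 70.0% among the other peaks. The other classes differed, with 94.9% for peaks inside a gene, 65.5% upstream and 33.3% downstream. Of the 183 other peaks with a summit within 1000 bp of their gene start, 89.6% were assigned to a protein-coding gene, so a high share was not particular to the 229. The remaining 14 included 4 antisense transcripts, and 5 of the 14 peaks also held the start of a protein-coding gene. The strongest was assigned to ENSMUSG00000086853, absent from the annotation used, with 429 fragments and 41.3-fold, and it covered the start of Wdr45, an autophagy gene. That of 4930515G01Rik (541 fragments, 28.3-fold) covered the start of Ankrd13a. Epb41l4aos (25.6-fold) and 2410006H16Rik (18.5-fold) had no protein-coding start in their peaks.

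The Wnt signaling genes among the assigned genes differed widely in strength. Of 62 matched genes of this list, 4 (6.45%) had a start covered, beside 0.980% (215 genes) of all 21938 protein-coding genes. The lists were chosen with earlier results of these data known, and no list was tested. All protein-coding genes are also an unlike baseline for every list here and below. Of their starts, 49.0% had a ratio of observed to expected CpG of at least 0.6, beside 88.6% of the 229 windows. The part of CpG content in the list shares was not tested. Frat2, a gene for a GSK3-binding protein that favors β-catenin, had 471 fragments (429 to 516) and 35.9-fold. Cby1, the Chibby gene, whose product antagonizes β-catenin, had 477 fragments (435 to 522) and 20.8-fold. Axin2, a negative feedback component of the pathway, had 123 fragments and 10.7-fold, rank 326 of the 779 peaks, and Pygo2, a β-catenin co-activator, had 107 fragments (87.7 to 129) and 4.06-fold, rank 744. The start of the co-activator gene Bcl9 also lay in the peak assigned to ENSMUSG00000097143, with 268 fragments (237 to 302) and 26.6-fold. The fragment intervals of Frat2 and Cby1 overlapped each other, as did those of Axin2 and Pygo2, while the 2 pairs did not overlap.

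Mitochondrial genes formed the largest count of any list, 9 of 111 (8.11%, beside 0.980% of all protein-coding genes), with a median of 34.3-fold. Beside Timm17b, Cmc2 and Lrpprc, they included Mpst, a sulfurtransferase gene (554 fragments, 509 to 602, 36.3-fold), and Dlst, which encodes a subunit of the 2-oxoglutarate dehydrogenase complex (388 fragments, 350 to 429, 34.3-fold). Ptcd2 and Ptcd3, genes for pentatricopeptide RNA-binding proteins, had 20.8- and 19.1-fold, and the peak of Ptcd3 also covered the start of Polr1a, the gene for the largest subunit of RNA polymerase I. Polg, the mitochondrial DNA polymerase gene, had 16.5-fold and Timm22 7.92-fold. The 9 peaks thus ran from rank 1 to rank 447 of the list. The gene list does not hold every mitochondrial gene. Outside it were, among others, the peaks of Mterf3 (31.4-fold), Aldh4a1 (29.3-fold) and Mrps11 (27.8-fold). Those of Uqcrh (19.3-fold) and Uqcrq (9.57-fold), genes for subunits of respiratory complex III, are also outside it. All of these were chosen after their values were seen.

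Of the chromatin regulators, 6 of 82 (7.32%, beside the same 0.980%) had a start covered, with a median of 29.3-fold. Hdac2, a histone deacetylase gene, had 472 fragments (430 to 517) and 37.7-fold, and Eed, a Polycomb repressive complex subunit gene, had 492 fragments (449 to 537) and 36.8-fold. Smc3 came next, and Kdm6b, a demethylase gene for trimethylated H3K27, had 405 fragments and 26.6-fold with its summit in an intron, 277 bp downstream of the start. The histone methyltransferase genes Dot1l and Setd1a were weaker, at 8.53- and 4.63-fold.

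RNA processing genes numbered 5 of 110 (4.55%, beside 0.980% of all protein-coding genes). The RNA-binding protein genes Ewsr1 and Taf15 had 393 and 530 fragments, with 20.6- and 19.8-fold. Tardbp, the gene for TDP-43, had 480 fragments (438 to 525) and 29.1-fold, Srpk2, an SR protein kinase gene, 444 fragments and 34.6-fold, and the polyadenylation factor gene Cpsf2 485 fragments and 25.4-fold. All 5 peaks had more fragments than the median of 338. By the annotation, the start of Srpk2 lay outside its peak. Of the translation list, 5 of 108 (4.63%, beside the same 0.980%) had a start covered: the ribosomal protein genes Rpl22 (512 fragments, 469 to 558, 37.3-fold) and Rpl19 (19.3-fold), the initiation and elongation factor genes Eif3b (32.6-fold) and Eef1d (27.9-fold), and the ribosome assembly gene Nop56 (16.7-fold). The ribosomal protein genes Rpl34 (10.8-fold) and Rpl13a (4.08-fold) are not on that list, and their peaks were weaker.

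Of the genes of autophagy and mTOR signaling, 4 of 62 (6.45%, beside 0.980% of all protein-coding genes) were assigned to a peak: Flcn, the folliculin gene, with 618 fragments (570 to 669), Atg101 with 525 (481 to 572), Atg12 with 509 (466 to 555) and Mlst8, a gene for a subunit of both mTOR complexes, with 490 (448 to 535). Their fold enrichments were 32.4, 30.6, 33.4 and 30.3. The starts of Wdr45 (429 fragments, 41.3-fold) and Akt1s1, whose product binds mTOR complex 1 (303 fragments, 14.5-fold), lay in peaks assigned to other genes, so the 6 covered starts ran from 14.5- to 41.3-fold. Ubiquitin system genes numbered 7 of 115 (6.09%, beside the same 0.980%), among them Uba1, the E1 enzyme gene (23.3-fold), the closely related E2 genes Ube2a (29.9-fold) and Ube2b (24.1-fold), the proteasome gene Psma7 (30.5-fold) and Rnf44. The weakest of the 7 were Cul2, a cullin gene (17.2-fold), and Usp15, a deubiquitinase gene (10.2-fold). By the annotation, the start of Ube2a lay outside its peak, which covered that of C330007P06Rik.

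**Figure D4:**
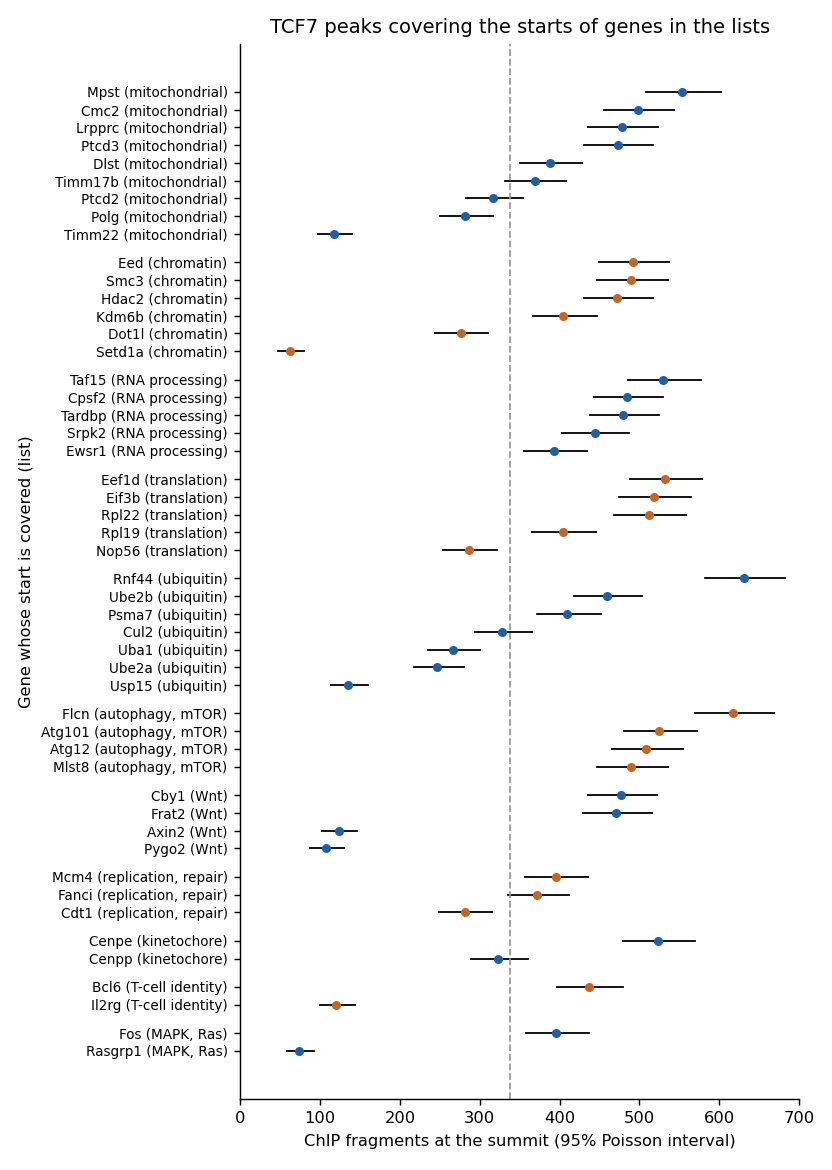
Points give the ChIP fragments at the summit of each peak assigned to a gene in 1 of 11 lists, and bars are 95% Poisson intervals, which cover counting error only. The dashed line is the median of all 229 peaks (338 fragments). Flcn, Atg101, Atg12 and Mlst8 lie between 490 and 618, and the 4 assigned Wnt genes at 107, 123, 471 and 477. Genes covered by a peak assigned to another gene, such as Bcl9 (268), Akt1s1 (303) and Wdr45 (429), are not drawn.

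Lists with a tie to T cells or to growth signals had 2 genes covered each, 3.64% of 55, beside 0.980% of all protein-coding genes. Of the T-cell identity genes, Bcl6, a transcriptional repressor gene, had 437 fragments (397 to 480) and 28.6-fold, and Il2rg, the common cytokine receptor chain gene, had 120 (99.5 to 143) and 7.96-fold. Of the MAPK and Ras genes, Fos and Rasgrp1 (5.66-fold) were covered. No start of the 32 Notch genes or, as assigned, of the 40 p53 and apoptosis genes was covered, although that of Daxx lay in a peak assigned to BC051226 (13.4-fold). Cell cycle genes gave 2 of 73 (2.74%), Cenpe, a kinetochore motor gene (523 fragments, 479 to 570, 34.3-fold), and Cenpp (12.1-fold). Replication and repair genes gave 3 of 77, Cdt1 (21.0-fold), Fanci (19.5-fold) and Mcm4 (18.8-fold). Of 32 cholesterol synthesis genes, only Pmvk, phosphomevalonate kinase, had its start covered as assigned (3.125%), with 364 fragments (328 to 403) and 25.4-fold. By the annotation, the start of Pmvk lay outside that peak, and 0 of the 32 genes had a start in any peak. Of 26 genes that the study named for its ChIP-seq, a list chosen on these samples and so no independent evidence, 5 were covered as assigned: Cenpe, Bcl6, Pmvk, Ptcd3 and Axin2. Of 44 marker genes of other cell types, 1 was covered (2.27%), the neuronal gene Syn1 (163 fragments, 139 to 190, 27.5-fold). That share is also above 0.980%, so a share above it does not mark a function. Starts outside the peak list have no value here, so nothing is known of weaker binding at them.

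The DNA under these summits was rich in G, C and CpG. The GC content within 100 bp of the summit had a median of 61.2% (quartiles 54.2 and 68.7), beside 52.5% for the other peaks and 58.7% at all protein-coding starts. The ratio of observed to expected CpG within 250 bp had a median of 0.817, beside 0.356 and 0.586, and 203 of the 229 (88.6%, 83.9 to 92.1) had a ratio of at least 0.6, the level of a CpG island, where 49.0% of all starts did. In 160 windows (69.9%) no base was repeat-masked, beside 36.0% of the other peaks. The 183 other peaks with a summit within 1000 bp of their gene start were more like the 229, with medians of 57.2% for GC and 0.706 for the CpG ratio. Of these 183, 66.1% had a ratio of at least 0.6 and 51.9% had no repeat-masked base. Fold enrichment had little relation to GC content among the 229 peaks (Spearman's rho −0.14, a description).

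The TCF/LEF word was no more frequent at these summits than at gene starts in general. It was searched on both strands within 100 bp of the summit, in its forms with a final A (CTTTGAA and also CTTTGTA) and in those with a final T (CTTTGAT and also CTTTGTT). It was found in 18 of the 229 windows (7.86%, 5.03 to 12.1), beside 8.49% of windows of the same length at all protein-coding starts. Of the other peaks, 104 of 550 (18.9%, 15.9 to 22.4) had it, 22.9% of those over 1000 bp from their gene start and 10.9% of those nearer. The stricter forms, TCTTTGAA, TCTTTGAT, CTTTGATC and CTTTGATG, were in 4 of the 229 windows (1.75%), 6.73% of the other peaks and 1.94% of all starts. GC content, which differed between these sets, was not held equal, and its part in the shares was not tested. Here and for the words below, windows at gene starts were centered on the start and not on a summit. The part of this difference in position was not tested either.

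Among the 229 peaks, those with the word had a higher median fold enrichment and ranged from 5.65- to 54.4-fold. The 18 had a median of 27.2-fold and 404 fragments, beside 20.5-fold and 336 fragments for the other 211. Of the 121 peaks at 20-fold or more, 13 (10.7%, 6.39 to 17.5) had it, beside 2 of 54 (3.70%) at 10- to 20-fold and 3 of 54 (5.56%) under 10-fold, and these intervals overlap. In the other peaks the share was higher among the weak ones, with 88 of 374 (23.5%, 19.5 to 28.1) under 10-fold, 8.80% at 10- to 20-fold and 5 of 51 (9.80%, 4.26 to 21.0) at 20-fold or more.

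The words of 5 of the 6 highest such peaks, all but that of Fam53c (601 fragments, 39.3-fold), and of the peaks at Bcl9 and Axin2 are shown with 10 bases on each side, on the strand that reads CTTTG, with the match in capitals.
Sept11, chr5:93093255-93093281, minus strand: agatgatacgCTTTGAAgtcagccacc
Zfp27, chr7:29906614-29906640, minus strand: gattgtaccaCTTTGATttgtcccctc
Uchl3, chr14:101653787-101653813, minus strand: gaaaaagaagCTTTGATcaacggtgaa
Rpl22, chr4:152325525-152325551, plus strand: ccttaagataCTTTGTTcgattcttat
Gm21988, chr11:70240100-70240126, plus strand: acgtgacctaCTTTGTTggatcacatg
ENSMUSG00000097143 (Bcl9), chr3:97297867-97297893, minus strand: ccctaagttgCTTTGATgttgtcctgg
Axin2, chr11:108920417-108920443, plus strand: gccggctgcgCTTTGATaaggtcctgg
Of these, Uchl3, a ubiquitin hydrolase gene (499 fragments, 37.4-fold), and the Bcl9 start had a strict form. The 18 also included Eif3b, the chaperonin subunit gene Cct5 (29.5-fold), Epo, which shares its peak with Gnb2 (25.1-fold), and, at the low end, Sp9 (5.65-fold).

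Of the other promoter words, most were found about as often under the 229 summits as at gene starts in general. The baseline of all starts is not matched in position, as stated above, or in CpG content. Of these starts, 49.0% had a CpG ratio of at least 0.6, beside 88.6% of the 229 windows. These words, here and in the next paragraph, were not counted at CpG-rich starts alone, and the part of CpG content in their shares was not tested. The SP1/KLF box (GGGCGG) was in 38.4% of windows (32.4 to 44.9), beside 40.0% of all starts and 18.2% of the other peaks. The ETS word (CCGGAAG) was in 24 windows (10.5%, 7.14 to 15.1), beside 9.60% and 2.55%. The E-box CACGTG was in 5.68%, the same share as at all starts, and the CRE word TGACGTCA in 2.18%, beside 2.01%. The YY1 word (AANATGGCG) was in 14 windows (6.11%, 3.68 to 10.0), above the 3.05% of all starts and the 0.364% of the other peaks. Those 14 peaks, among them Ptcd2, Prdm10, Rpl34, Cxxc1 and Hcfc1, were weaker than the rest, with medians of 12.2- and 21.4-fold.

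The NFY box CCAAT was below gene starts in general, in 18.3% (13.9 to 23.9) beside 28.2%. The NRF1 word GCGCNTGCG was in 3.93% (2.08 to 7.30) beside 7.03%, which lies within the interval. The RUNX word TGTGGT was in 6.55% (4.01 to 10.5), with 10.0% of all starts inside the interval and 16.9% of the other peaks above it. The AP1 words TGACTCA and TGAGTCA were in 2.62% and the SREBP word TCACNCCAC in 0.873%, beside 2.80% and 0.707%. The ZBTB33 word TCTCGCGA was in 0 of 229, which allows a share of up to 1.65% by the Wilson interval, beside 1.14%. Runs of at least 6 CAG units, found in 10.0% of the other peaks, were in 3 windows (1.31%), at Rsl24d1, Ndrg3 and Mllt3, and in 0.109% of all starts.

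**Figure D5:**
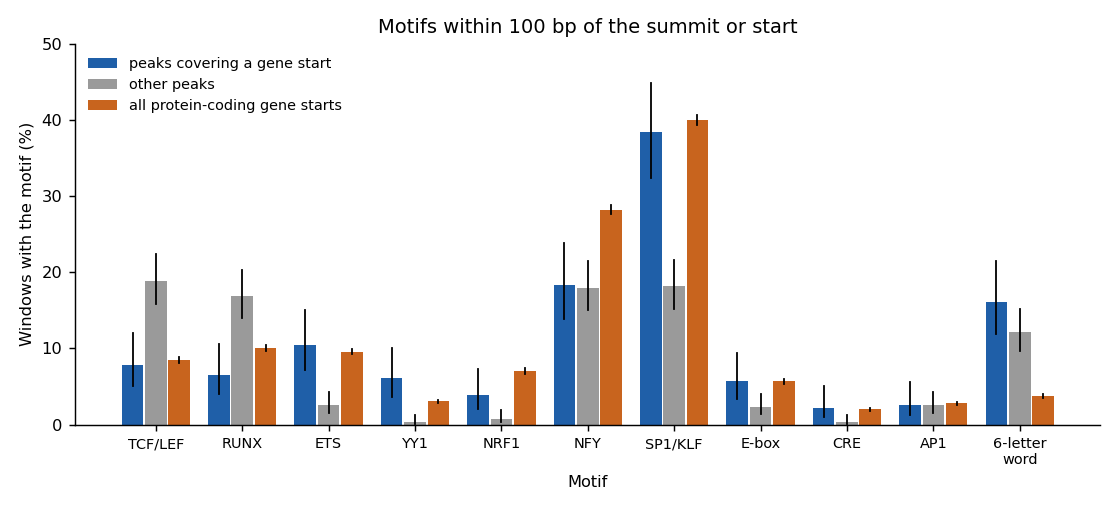
Bars give the percent of windows with each motif within 100 bp of the summit of the 229 peaks covering a gene start, of the other 550 peaks, and of the start of 21938 protein-coding genes, with 95% Wilson intervals. The TCF/LEF share of the 229 peaks (7.86%) is near that of all starts (8.49%), while the 6-letter word GTACCA was in 16.2% of the 229 and 3.80% of all starts.

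A word outside the motifs chosen for the search stood out when all 2080 distinct hexamers (each counted with its reverse complement) were compared, a choice made after the counts were seen. GTACCA was in 37 of the 229 windows (16.2%, 12.0 to 21.5), beside 3.80% of all protein-coding starts and 2.46% of the 10749 starts with a CpG ratio of at least 0.6. Of the 775 hexamers found in at least 20 of the windows, it had the highest ratio to those CpG-rich starts, 6.58, followed by 5 words with ratios of 5.19 to 3.98, of which 3 (TACCAA, the word ATGGTA and the word GTGGTA) share 5 letters in a row with it on 1 of the strands. The other 550 peaks were not used in this choice. In them GTACCA was in 67 windows (12.2%, 9.71 to 15.2), the highest ratio to all starts (3.20) of the 1701 hexamers present in at least 20 of those windows. It was in 13.7% of those within 1000 bp of their gene start and 11.4% of those farther away. Gene starts are an unlike baseline for the 367 farther peaks, and no background away from gene starts was counted.

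The word had its largest share among strong peaks. It was in 26 of the 121 peaks at 20-fold or more (21.5%, 15.1 to 29.6), 11.1% of those at 10- to 20-fold and 9.26% of those under 10-fold. The other peaks gave 12 of 51 (23.5%, 14.0 to 36.8), 13.6% and 10.2% in the same classes. The intervals of neighboring classes overlap. The 37 peaks had a median of 24.1-fold, and the 192 without the word 19.6-fold, with quartiles that overlap (14.4 to 29.9 and 9.87 to 29.3).

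The bases before the word were also alike, as the sites in the 8 strongest peaks with the word show. Each is given with 10 bases on both sides, on the strand that reads GTACCA, with the word in capitals, and genes were chosen after their values were seen.
Phrf1, chr7:141228525-141228550, plus strand: gagtcggactGTACCAactgcatgga
Zfp27, chr7:29906621-29906646, minus strand: aaagtggattGTACCActttgatttg
Slc35e2, chr4:155601572-155601597, plus strand: gttccggaatGTACCAcaggccagag
Mgea5, chr19:45783681-45783706, plus strand: gcggtgggacGTACCAttttggctcg
Rnf44, chr13:54694258-54694283, plus strand: ccgtcgggctGTACCAtcgcggaccc
Bzw1, chr1:58392930-58392955, minus strand: cctgactcttGTACCAgggtagcccg
Map7d1, chr4:126256354-126256379, plus strand: ctctccgaatGTACCAagtgcgcggg
Paxip1, chr5:27791445-27791470, plus strand: cctgaggcacGTACCAccacaccagc
In the 229 peaks the word occurred 38 times within 100 bp of a summit. The flanking positions given here were also chosen after counting. The base 4 before it was G in 33 of the 38 (86.8%), the base 5 before it was G in 28 (73.7%), and the base 2 before it was C in 23 (60.5%). In the 73 occurrences in the other peaks, which were again not used in the choice, these shares were 68.5%, 50.7% and 52.1%. In 790 occurrences near protein-coding starts they were 30.3%, 27.8% and 26.6%. The word read along the gene in 15 of the 38 and against it in 23, and 21 were within 50 bp of the summit. In the peak of Zfp27 it stood directly before the TCF/LEF word shown above. Which protein, if any, binds GTACCA was not measured.

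The 10 peaks on chromosome X had fewer fragments for their fold enrichment than those on autosomes. Their median was 242.5 fragments at 26.3-fold, beside 345 fragments at 20.6-fold for the 219 autosomal peaks. The ratio of scaled coverage to fold enrichment, a guide to the local input level, had a median of 4.87 on X (quartiles 4.31 and 5.82) and 7.96 on autosomes (6.90 and 9.83), and over all 779 peaks 4.67 and 6.89. Fold enrichments of Timm17b, Ube2a, Uba1, Syn1 and the Wdr45 start, all on X, come with 163 to 429 fragments, and the part of the input level in them was not tested.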

How the data were processed

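A peak list, of a single TCF7 ChIP library over a single input, was analysed. In Chipster, the authors mapped the reads (Bowtie2, mm10) and ran MACS2 on ChIP against input, with versions and settings that the sources used here do not give. The deposited pileup is a coverage signal at the summit, scaled by the authors to the input library. The deposited fold enrichment is the authors' ratio of ChIP to local input, and the deposited q-values are −log10 values. Column names of the authors' nearest-gene table are out of step with its columns, which were read by content.

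All pileups were whole multiples of 0.522 (within 0.0052 for 779 of 779), and the multiple was taken as the number of ChIP fragments. Poisson (exact) and Wilson intervals are at the 95% level. The authors' gene starts were within 100 bp of GENCODE vM21 for 207 of the 227 matched genes. Motifs were searched on GRCm38, on both strands; 2000 of 2000 RefSeq promoters checked were identical to it, and 180 of the 229 genes were in that RefSeq table. A motif match says nothing on binding.

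Members, gene lists and motifs were chosen with earlier results of these data known, and 1 gene was taken out of a list afterwards and is not reported here. Genes named in the text were drawn from the 10 highest by fold enrichment and by q, the 5 lowest, up to 5 per list, 6 with a TCF/LEF word, 6 with starts on both strands, the 3 widest and narrowest, those the study names for its ChIP-seq, 5 non-coding ones and 3 with CAG runs; others, and the hexamer comparison, were chosen after values were seen. Scripts were tested on simulated data and used samtools 1.23.1 and pysam 0.24.0 for sequences, scipy 1.17.1, pandas 2.3.3 and numpy 2.4.6 for values and matplotlib 3.10.9 for figures (Python 3.11.15).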

Additional observations from a re-analysis of the deposited data

How the results depend on the processing

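Without replicates, the spread between cultures is unknown, and counts of fragments limit only the precision within these libraries. With the peaks taken instead by a protein-coding start of the annotation inside them, there were 217, of which 209 were among the 229 and 8 were not, with medians of fold enrichment, fragments, width and summit position inside the intervals of the main values, and the same held for peaks with a −log10 q of at least 10. The share past the fold threshold was 76.4% at 10-fold. Starts on both strands were present in 30.6% of peaks within 500 bp of the summit, 34.9% within 1000 bp, and 11.4% with protein-coding genes only. Protein-coding genes made up 97.7% of the assigned genes where a protein-coding start was required. GC content was 62.9% over whole peaks. The TCF/LEF word was in 14.8% of windows of 250 bp on each side, 14.0% of whole peaks and, in strict form, 1.75%; at least 1 of the other 11 motifs was in 36.2% within 50 bp and 95.2% within 250 bp. The number of list genes was 94 with a summit within 1000 bp of a TSS. Wider windows hold more words by construction. No paired analysis was possible because no result comes from a test and each group has 1 sample.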
